A study of Homo sapiens with 4 samples.

Results

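The forkhead family comprises the transcription factors that share the winged-helix, or forkhead, DNA-binding domain. Its members were taken as the protein-coding genes whose symbol is FOX, a subfamily letter from A to S and a number, with an optional copy number. By this rule 50 of 60683 gene identifiers were members, and FOXD2, the gene delivered to the cells, is described apart from the other 49. RNA was sequenced from HCT116, an established human colorectal carcinoma line, in 2 groups of 2 libraries. The FOXD2 cells carried a pSin lentivirus with the full coding sequence of FOXD2, and the empty vector cells carried a pSin lentivirus without an insert. All 4 libraries came from stable transduced cells kept in 5 μg/mL puromycin, and the labels name neither a clone nor a time after transduction. The comparison asks how transcription differs in the presence of FOXD2. The labels do not say that replicates came from separate cultures, so the p-values given here reflect only how far these libraries vary, a variation that may be technical.

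Forkhead proteins bind DNA sites with a core close to TAAACA, and some of them, such as the FOXA proteins, can bind within closed chromatin. Most FOXO proteins are held in the cytoplasm after phosphorylation by AKT and act on cell-cycle arrest, stress and metabolic genes when growth factor signalling is low, while FOXM1 drives genes of the G2 phase and mitosis. In the intestine FOXA factors belong to the endodermal epithelium, and FOXF1, FOXF2 and FOXL1 are known as genes of the mesenchyme beneath it. FOXQ1 is known for its role in hair differentiation in the mouse and for high expression in colorectal carcinoma.

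Totals of counts assigned to genes were 15340166 and 14231338 in the FOXD2 libraries and 14245777 and 15535817 in the empty vector libraries. In the FOXD2 libraries 129 and 56.8 CPM (counts scaled to library size) came from RNAs made without a polyA tail (RN7SL1, RN7SL2, RN7SK, RPPH1 and RMRP, the last under 2 of 6 identifiers), against 29.7 and 28.5 CPM in the empty vector libraries. Both FOXD2 libraries thus lay above both empty vector libraries, and FOXD2 replicate 1 was the highest. The part of this class in the results was not tested. Of 10 epithelial markers 6 were tested, of which KRT8, KRT18, KRT19, CDH1 and EPCAM were higher and CDX2 lower, the list summing to 8345 and 7838 CPM in FOXD2 libraries and 4411 and 4543 CPM in empty vector libraries. KRT8 had 4039 ± 139 CPM in FOXD2 cells and 2235 ± 34.7 CPM in empty vector cells (SD, n = 2 each), and EPCAM had 388 ± 3.72 and 350 ± 15.1 CPM. The calls of EPCAM and CDX2 ended without empty vector replicate 2 (edgeR adjusted p = 0.062 and 0.056), and that of EPCAM also without empty vector replicate 1 (0.36) and FOXD2 replicate 1 (0.057), with ranges of 0.00085 to 0.36 for EPCAM and 0.00015 to 0.62 for CDX2. The intestinal markers CEACAM5 and ASCL2 had 0 counts in all libraries, and LGR5 and VIL1 had at most 7 counts in a group. Of 8 fibroblast markers COL1A1 and ACTA2 were tested and both were higher, the list summing to 41.5 and 41.0 CPM in FOXD2 libraries and 13.3 and 15.3 CPM in empty vector libraries, while COL1A2, DCN, LUM and FAP had 0 counts. Of 10 blood and endothelial markers CD68 and HBA2 were higher, the list summing to 45.2 and 37.9 CPM against 5.36 and 6.09 CPM, and PTPRC, CD3E, CDH5 and HBB had 0 counts. Whether these markers have a part in the forkhead results was not tested. In such bulk samples fewer cells with a transcript and less of it per cell cannot be told apart.

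FOXD2 was the most abundant forkhead transcript of the FOXD2 cells. It had 275.9 and 256.6 TPM (a transcript level per length) in the FOXD2 libraries, against 1.84 and 1.42 TPM in the empty vector libraries, from 8195 and 7011 counts against 49 and 42. FOXD2 thus made up 47.9% and 45.5% of all forkhead TPM in the FOXD2 libraries, against 0.592% and 0.488% in the empty vector libraries. The deposited TPM divides by the length of the annotated transcript whereas the virus carried the coding part, so the level of FOXD2 per length is uncertain. The other 49 members together summed to 300.4 and 307.1 TPM in FOXD2 cells and to 308.9 and 289.4 TPM in empty vector cells, ranges that overlap. Without FOXQ1, the remaining members summed to 275.5 and 283.2 TPM in FOXD2 cells. In empty vector cells they summed to 308.6 and 289.1 TPM, and those ranges do not overlap. Leaving out the member that rose most lowers the FOXD2 sums, whereas FOXC1, which fell (7.98 and 7.45 against 20.85 and 19.83 TPM), was kept. FOXK2 alone had 50.4 and 65.9 TPM in FOXD2 libraries and 72.6 and 57.3 TPM in empty vector libraries. The sums without FOXQ1 thus cannot show whether the other members fell as a set.

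Of the other 49 members, 25 passed the filter on low counts and were tested. Among these 7 rose and 5 fell in FOXD2 cells, and 13 did not pass (edgeR adjusted p under 0.05). Over all 14470 genes tested 27.2% were called higher and 26.4% lower. The members called were 48.0% of those tested, near the 53.5% called among all genes. The median log2 fold change was 0.09 in the members and 0.01 over all genes, and the median size of the change was 0.46 and 0.32. At least 2-fold changes that passed were found in 4 of 25 members, FOXQ1 and FOXE3 higher and FOXC1 and FOXL1 lower, against 11.0% of all genes. CPM ranges of the groups did not overlap for 18 of the 25, against 76.1% of all genes.

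**Figure D1:**
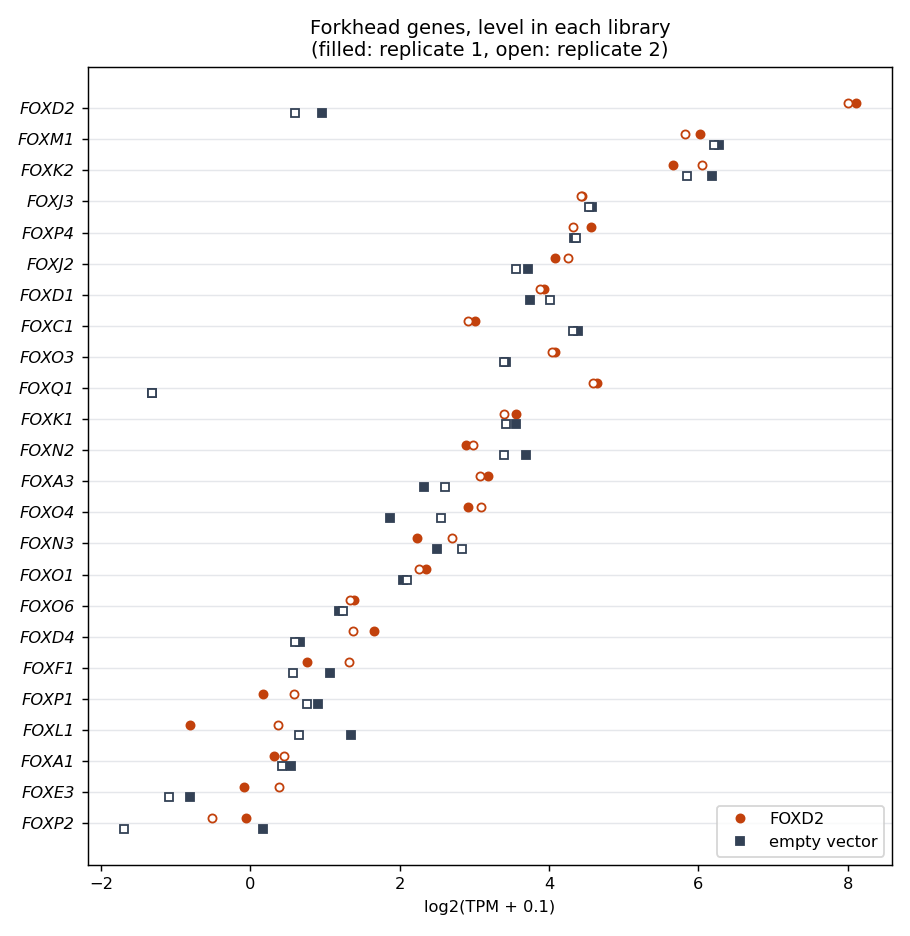
Level of forkhead genes with at least 1 TPM in a library, on the log2(TPM + 0.1) scale (x axis), with FOXD2 libraries as circles above and empty vector libraries as squares below, and replicate 1 filled and replicate 2 open. FOXD2 and FOXQ1 lie far to the right in FOXD2 cells, FOXC1 lies to the left, and FOXM1 and FOXK2 are the highest of the other members in both groups.

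After FOXD2, FOXQ1 showed the largest change of the tested members. FOXD2 libraries held 744 and 658 of its counts, against 8 and 9 with the empty vector. Its level was 24.9 and 24.0 TPM in FOXD2 cells and 0.30 TPM in each empty vector library, and the groups lay far apart. The fitted difference was 78.2-fold (log2 fold change 6.29, SE 0.19, edgeR adjusted p = 1.7e-34). By this size FOXQ1 stood at place 30 among the 14470 genes tested. In the order of forkhead levels it held place 4 in FOXD2 cells, below FOXD2, FOXM1 and FOXK2, and place 27 in empty vector cells.

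FOXQ1 lies in a cluster of forkhead genes on chromosome 6 (1312440 to 1314748, plus strand, GRCh38) with FOXF2, whose start is 77.1 kb away, and FOXC1, whose start is 298 kb away (1609972 to 1613897, plus strand). FOXC1, a factor of mesenchyme and of the anterior eye, changed in the other direction. It had 23.6 and 21.5 CPM in the FOXD2 libraries and 61.6 and 60.2 CPM in the empty vector libraries, with no overlap. Its log2 fold change was -1.43 (SE 0.09, edgeR adjusted p = 4.8e-20), the largest fall among the tested forkhead genes. FOXF2, which lies between them, had 0 counts in all 4 libraries, which allows a level of up to 0.193 to 0.215 CPM in a library. GMDS, a GDP-mannose dehydratase gene 9.91 kb beyond FOXC1, fell slightly (15.8 ± 1.61 CPM in FOXD2 cells and 20.3 ± 1.91 CPM in empty vector cells, log2 fold change -0.37, edgeR adjusted p = 0.0097), a call that ended without empty vector replicate 2 (0.18) and without FOXD2 replicate 2 (0.091), with a range of 0.0022 to 0.21. No other gene within 500 kb of FOXQ1 on its lower-coordinate side was tested, and EXOC2, an exocyst gene whose lower end lies 827 kb from that of FOXQ1, had a log2 fold change of 0.33 (edgeR adjusted p = 0.00039).

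**Figure D2:**
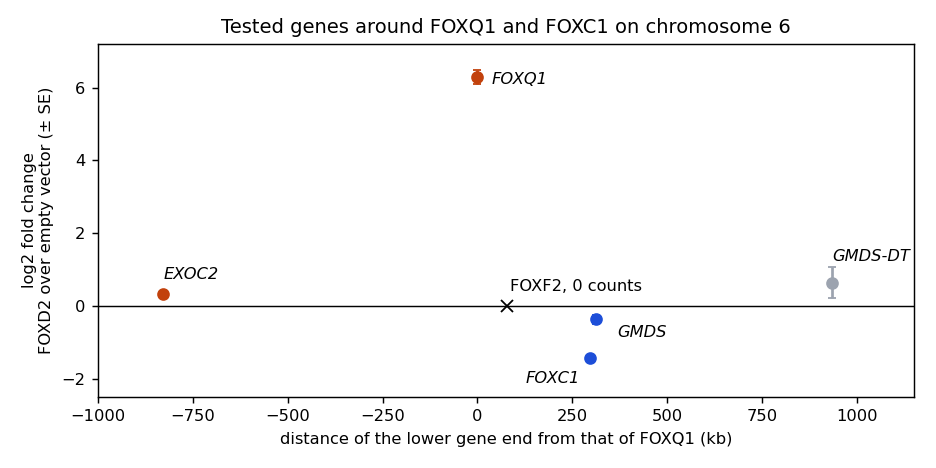
Fitted log2 fold change (y axis, FOXD2 over empty vector, bars ± SE) of every tested gene within 1000 kb of FOXQ1, against the distance in kb of its lower end from that of FOXQ1 (x axis); orange points passed as higher, blue as lower, grey did not pass, and the cross marks FOXF2 with 0 counts. FOXQ1 stands at 6.29 and FOXC1, 298 kb away, at -1.43.

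The upstream sequences of these 3 neighbours are shown because the genes lie in 1 cluster while FOXQ1 rose, FOXC1 fell and FOXF2 had no counts. Each is the 250 bases before the start in RefSeq (GRCh38.p14), plus strand, 5′ to 3′, with capitals on AAACA, the shortest forkhead core searched, or on CCAAT, the box of the factor NF-Y, or on their complements on the other strand (TGTTT and ATTGG). FOXQ1 covers chr6:1311848-1312097, FOXF2 chr6:1389326-1389575 and FOXC1 chr6:1609665-1609914.
FOXQ1: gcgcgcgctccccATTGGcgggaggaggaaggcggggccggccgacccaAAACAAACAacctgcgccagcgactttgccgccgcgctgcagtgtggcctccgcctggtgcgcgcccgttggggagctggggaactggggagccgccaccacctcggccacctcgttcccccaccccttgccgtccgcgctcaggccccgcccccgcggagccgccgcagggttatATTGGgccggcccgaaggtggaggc
FOXF2: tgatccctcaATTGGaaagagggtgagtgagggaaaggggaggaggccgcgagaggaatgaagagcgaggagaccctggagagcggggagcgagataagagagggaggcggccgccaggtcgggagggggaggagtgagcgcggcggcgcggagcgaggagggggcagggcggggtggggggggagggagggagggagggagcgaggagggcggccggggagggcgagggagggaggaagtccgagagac
FOXC1: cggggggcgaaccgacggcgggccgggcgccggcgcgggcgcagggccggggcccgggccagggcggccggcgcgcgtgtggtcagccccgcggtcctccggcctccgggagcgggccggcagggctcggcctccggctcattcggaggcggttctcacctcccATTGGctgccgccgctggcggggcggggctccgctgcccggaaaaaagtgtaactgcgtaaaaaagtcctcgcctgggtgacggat
The FOXQ1 stretch holds AAACA in 2 overlapping places and CCAAT, as ATTGG, in 2, and the FOXF2 and FOXC1 stretches hold no AAACA and 1 CCAAT each. GC content was 74.0% for FOXQ1, 70.8% for FOXF2 and 76.8% for FOXC1. Both motifs were added after the windows were seen, and they are common: AAACA lies on either strand of 44.4% and CCAAT of 34.6% of all 35116 RefSeq windows, which reach from 250 bases before to 50 bases after a start. In the 250 bases before the start alone these shares were 40.4% and 32.0%.

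Promoter windows were found for 39 of the 50 members (50 windows), among them 8 of the 12 called members (13 windows). The longer core TAAACA, searched on both strands, lay in 5 forkhead windows and in 12.3% of all windows. GTAAACA, which contains it, lay in 2 forkhead windows and in 3.42% of all windows. GACGC, a site bound by some FOXN proteins, lay in 17 forkhead windows (34.0%) and in 35.3% of all windows. Among the called members TAAACA was found in FOXO4 and in 1 of 4 windows of FOXO3, both of which rose, and these matches are shown with their surroundings, plus strand, TAAACA in capitals. The FOXO4 match begins 25 bases after the start (chrX:71095863-71095892) and the FOXO3 match 233 bases before it (chr6:108560672-108560701).
FOXO4: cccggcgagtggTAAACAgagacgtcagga
FOXO3: ccgagcgaaacaTAAACAaacgcacgcaca
The family's shares thus lay near those of all promoters, and a match in letters shows no binding.

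Of the 4 FOXO genes, most of whose proteins leave the nucleus after phosphorylation by AKT, FOXO3 and FOXO4 rose. FOXO3 had 92.9 and 88.6 CPM in FOXD2 libraries and 59.1 and 59.4 CPM in empty vector libraries (log2 fold change 0.61, SE 0.07, edgeR adjusted p = 4.7e-10). FOXO4 had 15.4 and 17.5 CPM in FOXD2 libraries, against 8.51 and 8.81 CPM (0.92, SE 0.14, edgeR adjusted p = 2.3e-07). Neither gene's groups overlapped. FOXO1 had a value of 0.20 (SE 0.12, edgeR adjusted p = 0.14) and FOXO6 of 0.01 (SE 0.25, edgeR adjusted p = 0.99), and neither passed. Summed over the 4 genes the level was 31.7 and 31.8 TPM in FOXD2 cells and 20.4 and 22.6 TPM in empty vector cells.

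FOXO3 can share reads with its processed pseudogene FOXO3B on chromosome 17, which had 3.46 ± 0.806 CPM in FOXD2 cells and 5.83 ± 2.07 CPM in empty vector cells (log2 fold change -0.75, SE 0.25, edgeR adjusted p = 0.0093). That call ended without empty vector replicate 1 (-0.35, edgeR adjusted p = 0.38) and without FOXD2 replicate 1 (-0.53, 0.092), with a range of 0.00039 to 0.38. Counts of the pair together were 2846 in FOXD2 cells and 1891 in empty vector cells, so the pair's sum was higher in FOXD2 cells too. RSEM gave the FOXO3 count a posterior SD of at most 4.06 counts in any library.

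FOXM1, which drives mitotic genes, had the highest mean TPM after FOXD2 in FOXD2 cells, overlapping FOXK2, and the highest of all in empty vector cells. It had 145 and 128 CPM in FOXD2 libraries and 170 and 165 CPM in empty vector libraries, a small fall that left the groups apart (log2 fold change -0.30, SE 0.07, edgeR adjusted p = 0.00014). The gene lies on chromosome 12, minus strand, and overlaps RHNO1, a DNA damage response gene (-0.38), and ITFG2 (0.59) on the other strand. Their reads cannot be told apart from those of FOXM1 with certainty, since the strand setting of the counting is not given in the sources used here. FOXK1 and FOXK2, broadly expressed factors known as regulators of metabolic genes, did not pass (-0.16, SE 0.07, edgeR adjusted p = 0.068, and -0.09, SE 0.06, edgeR adjusted p = 0.22).

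The effective length that RSEM gave FOXK1, weighted by the abundance of its transcripts, was 9819 and 9878 bases in FOXD2 libraries and 10705 and 10537 bases in empty vector libraries. Its level was 11.7 and 10.5 TPM in FOXD2 cells and 11.7 and 10.6 TPM in empty vector cells, and on this scale the ranges overlapped. FOXM1 had effective lengths of 2873 and 2975 bases in FOXD2 libraries and 2815 and 2791 bases in empty vector libraries. The transcripts behind these shifts were not analysed here.

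Among members of subfamilies J and N, FOXJ2 rose while FOXN2 fell. FOXJ2, a broadly expressed activator, had 66.4 and 73.2 CPM in FOXD2 cells and 51.7 and 47.8 CPM in empty vector cells (log2 fold change 0.49, SE 0.08, edgeR adjusted p = 7.7e-07). FOXN2 had 23.3 and 26.2 CPM in FOXD2 cells and 42.6 and 34.1 CPM in empty vector cells (-0.63, SE 0.10, edgeR adjusted p = 1.7e-06). The groups of both genes were apart. FOXJ3, the paralogue of FOXJ2, had 83.3 and 80.5 CPM against 91.9 and 91.5 CPM and passed narrowly as lower (-0.16, SE 0.07, edgeR adjusted p = 0.049), a call that ended in 10 of 13 alternatives, over which its adjusted p lay between 0.038 and 0.37. FOXN3 did not pass (-0.21, SE 0.11, edgeR adjusted p = 0.083).

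Of the gut endoderm factors FOXA3 rose and FOXA1 did not pass. FOXA3 had 187 and 160 counts in FOXD2 cells and 92 and 125 counts in empty vector cells, with no overlap (log2 fold change 0.62, SE 0.16, edgeR adjusted p = 0.00089). Its call ended without empty vector replicate 1 (0.46, edgeR adjusted p = 0.053), and over all alternatives the adjusted p lay between 0.00061 and 0.053. FOXA1, a pioneer factor, had 2.96 and 3.21 CPM in FOXD2 cells and 3.50 and 2.98 CPM in empty vector cells, overlapping ranges (-0.07, SE 0.27, edgeR adjusted p = 0.84). FOXA2 had at most 2 counts in a library, and FOXH1, the partner of SMAD2 in nodal signalling, had 9 and 6 counts in FOXD2 libraries against 1 and 3 and was below the filter.

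The forkhead cluster of chromosome 16 holds FOXF1, FOXC2 and FOXL1 within 65.8 kb, and FOXL1 alone of them passed the test. FOXL1, a gene of the mesenchyme beneath the gut epithelium, fell: it had 27 and 41 counts in FOXD2 libraries and 72 and 68 counts in empty vector libraries (log2 fold change -1.09, SE 0.27, edgeR adjusted p = 0.00061). Its effective length varied between 2694 and 4722 bases over the libraries, and on log2(TPM + 1) and log2(TPM + 0.1) the call was lost (limma adjusted p = 0.064 and 0.076; range over all alternatives 9.2e-05 to 0.076). FOXC2, a factor of lymphatic vessels 9.54 kb away by start, had 12 and 10 counts against 2 and 8 and did not pass (1.07, SE 0.59, edgeR adjusted p = 0.12). FOXF1 had 64 and 89 counts against 72 and 56, overlapping ranges (0.20, SE 0.23, edgeR adjusted p = 0.48).

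FOXE3, a lens gene, lies 19.9 kb by start from FOXD2 on chromosome 1 and was low but higher in FOXD2 cells. It had 16 and 21 counts in FOXD2 libraries and 8 and 7 counts in empty vector libraries (log2 fold change 1.24, SE 0.48, edgeR adjusted p = 0.025). The call ended in 5 of 13 alternatives, among them without empty vector replicate 1 (edgeR adjusted p = 0.10), without empty vector replicate 2 (0.19) and without FOXD2 replicate 2 (0.24), with adjusted p between 0.021 and 0.24 over all of them. The noncoding gene FOXD2-AS1, between FOXE3 and FOXD2, had 3.09 ± 0.275 CPM in FOXD2 cells and 4.56 ± 0.636 CPM in empty vector cells and did not pass (-0.56, SE 0.25, edgeR adjusted p = 0.058). CMPK1, a nucleotide kinase gene 37.2 kb on the far side of FOXE3, had a value of 0.05 (edgeR adjusted p = 0.50).

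Of the FOXD subfamily, the nearest relatives of FOXD2, FOXD1 was clearly expressed. This gene, known from kidney stroma, had 15.2 and 14.7 TPM in FOXD2 cells and 13.3 and 16.1 TPM in empty vector cells, and its value of -0.08 (SE 0.11, edgeR adjusted p = 0.59) did not pass. FOXD3, a neural crest gene, had 1 and 8 counts against 5 and 7 and was not tested. FOXD4 rose, with 65.6 and 49.4 expected counts in FOXD2 libraries and 28.6 and 30.2 in empty vector libraries (log2 fold change 0.90, SE 0.29, edgeR adjusted p = 0.0064). Its call ended without FOXD2 replicate 1 (0.71, edgeR adjusted p = 0.11) and with DESeq2 (adjusted p = 0.093), and the adjusted p lay between 0.0050 and 0.11 over the alternatives.

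FOXD4 has near-identical copies, FOXD4L1, FOXD4L3, FOXD4L4, FOXD4L5 and FOXD4L6, among which RSEM divides reads, so that single values are uncertain. FOXD4L1, the copy that was tested, had 14.1 and 17.1 expected counts against 9.39 and 8.84 and did not pass (0.72, SE 0.47, edgeR adjusted p = 0.20). The posterior SD of the count reached 2.21 for FOXD4L3 and 2.20 for FOXD4L6, genes with at most 11.9 and 3.98 expected counts in a library. Summed over the 6 genes there were 98 and 92 counts in FOXD2 libraries and 51 and 64 counts in empty vector libraries. Tested as 1 gene, a choice made after the data were seen, the sum passed as higher (log2 fold change 0.67, edgeR adjusted p = 0.0066).

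The FOXP genes, repressors known from brain, lung and regulatory T cells, gave no call. FOXP4, the most abundant, had 71.2 and 60.2 CPM in FOXD2 cells and 61.0 and 62.6 CPM in empty vector cells (log2 fold change 0.09, SE 0.08, edgeR adjusted p = 0.36). FOXP1 had a value of -0.46 (SE 0.26, edgeR adjusted p = 0.13) and FOXP2 of 0.24 (SE 0.38, edgeR adjusted p = 0.62), both from low counts. FOXP3 had at most 5 counts in a library.

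**Figure D3:**
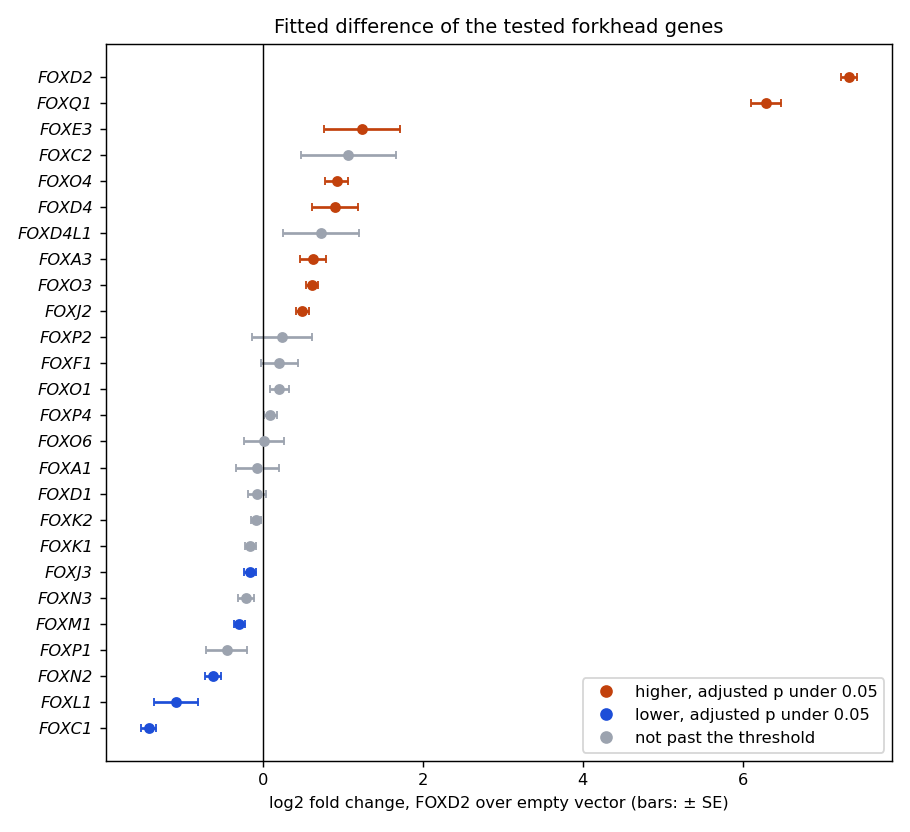
Fitted log2 fold change (x axis, FOXD2 over empty vector, bars ± SE) of FOXD2 and the 25 other forkhead genes tested, ordered by value, with genes past the threshold as higher in orange, lower in blue and the rest in grey. After FOXD2 (7.32) and FOXQ1 (6.29) no member lies above 1.24, and FOXC1 is lowest at -1.43.

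In total 24 members were not tested. For 13 of them no count was assigned in any library, among them FOXF2, FOXE1, FOXL2, FOXN1, FOXI1, FOXR1 and FOXR2. The other 11 had at most 12 counts in a library, the highest being FOXN4 in empty vector replicate 2. FOXJ1, the regulator of motile cilia, had 0 and 3 counts against 0 and 4, and FOXS1 had 1 count in all. Fitted with no filter on low counts, none of these 11 passed in edgeR; FOXH1, whose CPM ranges did not overlap between the groups, had a log2 fold change of 1.78 there (SE 0.92, edgeR adjusted p = 0.14).

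The order of levels shifted for a few members. In FOXD2 cells FOXQ1 (24.4 ± 0.679 TPM) was followed by FOXP4 (21.7 ± 2.48 TPM) and FOXJ3 (21.6 ± 0.148 TPM), a pair whose ranges overlapped. In empty vector cells FOXM1 (75.4 ± 2.47 TPM), FOXK2 (64.9 ± 10.8 TPM), FOXJ3 (23.4 ± 0.537 TPM), FOXC1 (20.3 ± 0.721 TPM) and FOXP4 (20.2 ± 0.325 TPM) led, and the ranges of FOXC1 and FOXP4 overlapped. FOXC1 thus held place 13 in FOXD2 cells and place 4 in empty vector cells. In FOXD2 cells FOXA3, FOXO4, FOXC1 and FOXN2 formed a run of neighbours, 7.53 to 8.65 TPM on average, in which FOXO4, FOXC1 and FOXN2 each overlapped the gene above. At least 10 counts were found for 26 and 27 members in FOXD2 libraries and for 22 and 24 in empty vector libraries.

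Genes around the FOXO factors, and below around other forkhead factors, were then described from lists of textbook members. The lists were chosen with earlier results of these data known, so their shares are no independent contrast with those of all genes. Of 24 tested FOXO targets 14 rose (58.3%, against 27.2% of all genes) and 5 fell (20.8%, against 26.4%), and the median log2 fold change was 0.36, against 0.01 over all genes. Both directions shrank under alternatives: with DESeq2 12 rose and 3 fell, and with limma on TPM 12 rose and 2 fell. The rise of KLF2 (0.34) was 0.08 without FOXD2 replicate 1. The rises were led by PIK3IP1, an inhibitor of PI3 kinase (3.04 ± 1.30 CPM in FOXD2 cells and 0.411 ± 0.075 CPM in empty vector cells, 2.85), the insulin receptor substrate IRS2 (50.6 ± 1.54 and 17.6 ± 0.952 CPM, 1.53), the stress gene GADD45B (1.28) and CCNG2, a cyclin of arrested cells (0.95). The falls were SESN3 (-1.16) and CITED2 (-1.11), the kinase gene PDK4 (-0.96), the cell-cycle inhibitor CDKN1B (-0.59) and SOD2 (-0.19). The edgeR adjusted p-values of these genes were at most 0.018. The calls of PDK4 and SOD2 ended without empty vector replicate 1 (edgeR adjusted p = 0.073 and 0.065) and without empty vector replicate 2 (0.052 and 0.14), and that of PDK4 also without FOXD2 replicate 2 (0.12), with ranges over the alternatives of 0.013 to 0.28 for PDK4 and 0.012 to 0.14 for SOD2. BCL2L11, INSR, SESN1, FBXO32 and MXI1 did not pass, so the list moved in both directions.

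Of 25 tested FOXO regulators and partners 6 rose (24.0%, near the 27.2% of all genes) and 13 fell (52.0%, against 26.4%), with a median of -0.18. The largest rise was that of SFN, the epithelial 14-3-3 protein (311 ± 32.2 CPM in FOXD2 cells and 150 ± 11.5 CPM in empty vector cells, 1.05). It was followed by the kinase gene SGK3 (0.37), MDM2 (0.31) and the acetyltransferase gene EP300 (0.25). SKP2 (-0.61), which targets FOXO1 for degradation, PIK3CA (-0.59), the nuclear exporter XPO1 (-0.50) and the 14-3-3 gene YWHAH (-0.46) fell most. AKT1, which encodes the kinase upstream of FOXO proteins, had 197 ± 6.04 and 192 ± 4.02 CPM and did not pass (0.03, edgeR adjusted p = 0.69), and AKT2 rose slightly (0.25). Under alternatives the falls in this list numbered between 8 and 13 and the rises between 3 and 7, with 3 rises without empty vector replicate 1. Calls that ended without 1 library were those of SGK3 (edgeR adjusted p = 0.092 without empty vector replicate 1 and 0.12 without FOXD2 replicate 2, range 0.00016 to 0.13), AKT2 (0.086 without empty vector replicate 1, range 0.00035 to 0.086) and EP300 (0.30 without empty vector replicate 2, range 0.0010 to 0.30).

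Of 25 tested FOXM1 targets 20 fell (80.0%, against 26.4% of all genes) and 1 rose (against 27.2%), with a median of -0.42. CENPF (242 ± 7.43 CPM in FOXD2 cells and 401 ± 30.9 CPM in empty vector cells, -0.73), HMMR (-0.68), NEK2 (-0.67) and PLK1 (160 ± 9.05 and 251 ± 9.42 CPM, -0.65), all genes of mitosis, fell most. CDC25B, a phosphatase that activates CDK1 and a known FOXM1 target, rose (0.22, SE 0.06, edgeR adjusted p = 0.0013), a call that ended without empty vector replicate 1 (0.063, range 6.8e-05 to 0.063), while CENPA, CENPB, NUF2 and CDC25C did not pass. The DREAM complex represses cell-cycle genes in quiescence, and the list of FOXM1 partners mixes its subunits with other cell-cycle genes. The counts of this list are thus not those of the complex alone. Of its 22 genes 12 fell (54.5%, against 26.4% of all genes) and 4 rose (18.2%, against 27.2%), with a median of -0.22. Among them CCNA2 (-0.64), CDK4 (-0.60), E2F1 (-0.55), CDK1 (-0.54) and MYBL2 (-0.40) fell, and LIN37 (0.71), RBL2 (0.43), CDK6 (0.38) and CCND3 (0.29) rose, the last of these not without empty vector replicate 1 (edgeR adjusted p = 0.17, range 0.0012 to 0.17). SKP2 stands in both the FOXO regulator and the FOXM1 target lists, and RBL2 in both the FOXO target and the FOXM1 partner lists.

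Of 23 tested cofactors of FOXA, FOXH1, FOXP and FOXK proteins 4 rose (17.4%, against 27.2% of all genes), 3 fell (13.0%, against 26.4%) and 16 did not pass, with a median of 0.04. The deacetylase genes HDAC1 (-0.60) and HDAC2 (-0.42) and their scaffold SIN3A (-0.41) fell. SOX9, a factor of intestinal crypts (180 ± 2.07 CPM in FOXD2 cells and 103 ± 1.18 CPM in empty vector cells, 0.81), and the corepressors TLE3 (0.68) and TLE1 (0.55) were among those that rose. Of 18 noncoding genes and pseudogenes related to forkhead genes by name or place 4 were tested. FOXO3B fell, and FOXD2-AS1, FOXN3-AS1 (-0.05, edgeR adjusted p = 0.93) and FOXP4-AS1 (0.16, edgeR adjusted p = 0.81) did not pass.

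**Figure D4:**
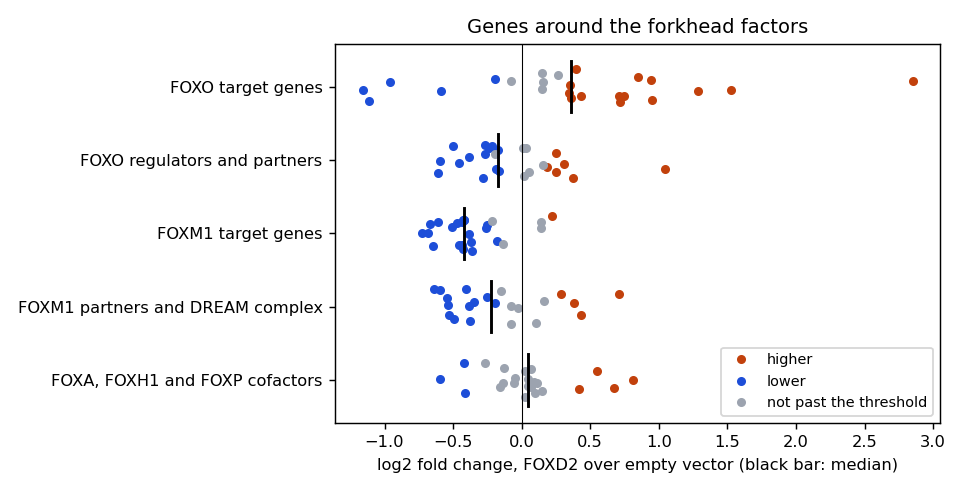
Fitted log2 fold change (x axis, FOXD2 over empty vector) of every tested gene of 5 lists around the forkhead factors, 1 point a gene, orange higher and blue lower past the threshold, grey not past it, with a black bar at the median. FOXM1 targets lie almost all left of 0 (median -0.42), and FOXO targets lie mostly right of it (median 0.36).

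The nearest tested neighbours of the other called members went several ways. Here "next to", "beside" and "around" mean nearest among tested genes, not adjacent. FBXO11 lay 409 kb from FOXN2, ARMC2 164 kb from FOXO3, HIVEP3 141 kb from FOXJ3 and SLC2A3 96.4 kb from FOXJ2. Next to FOXJ2, NECAP1, an endocytosis gene, rose to a like extent (0.50, edgeR adjusted p = 8.2e-07), while the glucose transporter gene SLC2A3 on the other side had 44.3 ± 20.1 CPM in FOXD2 cells and 5.25 ± 0.445 CPM in empty vector cells and did not pass (3.07, SE 0.61, edgeR adjusted p = 0.053). Next to FOXO4, the Mediator gene MED12 rose (0.34) and SNX12 did not pass (-0.09). Next to FOXN2 neither FBXO11 (-0.14) nor PPP1R21 (0.16) passed, and next to FOXA3 neither SYMPK (-0.01) nor IRF2BP1 (0.17) did. Around FOXM1, the cochaperone gene FKBP4 (-0.60) and TULP3 (-0.40) fell. Around FOXJ3, HIVEP3 rose (1.12) and RIMKLA fell (-0.72). AFG1L rose beside FOXO3 (0.77) and WASHC1 beside FOXD4 (0.35), while ARMC2 (-0.40) and ZNG1A (-0.06) did not pass. The calls of both risen neighbours ended without FOXD2 replicate 2 (edgeR adjusted p = 0.058 for AFG1L and 0.14 for WASHC1), and also without empty vector replicate 2 for AFG1L (0.084) and without empty vector replicate 1 for WASHC1 (0.16), with ranges of 0.0096 to 0.13 and 0.0068 to 0.16.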

How the data were processed

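The aligner STAR (2.7.2b), the counter RSEM (1.2.31) and the build GRCh38 (hg38) are named in the submitters' processing notes; annotation release and strand setting are not given in the sources used here. The authors deposited, per the file headers, RSEM expected counts, TPM, FPKM, effective lengths and a posterior SD score of each count; FPKM was used for an alternative. Symbols and gene classes came from a gene name table and GENCODE release 29 (58496 of 60683 identifiers matched); all rows name a gene. Expected counts were rounded and fitted in R (4.3.3) by edgeR (4.0.16), using TMM, filterByExpr and a robust quasi-likelihood test of the group term, with Benjamini-Hochberg adjustment over all 14470 genes tested. The test was checked on simulated data with 200 changed genes, as many higher as lower, and 1 spread shared by all genes. In these data 53.5% of genes were called, so the check does not show how scaling and test perform with so many changes. CPM uses TMM-scaled library sizes. Fold changes are fitted values on the log2 scale, positive where FOXD2 cells are higher. The SE given with edgeR values is the absolute log2 fold change divided by the square root of the test's F statistic. It is not a separately fitted error, and the ratio of value to SE alone does not give the p-value. Alternatives used DESeq2 1.42.0 and limma 3.58.1, other scalings and filters, and left out each library. A count of 0 allows 3 counts; such limits cover counting error only, since reads were not collapsed to molecules by identifiers. Replicates of a group differed by more than sampling noise (chi-square per degree of freedom 4.09 in FOXD2 and 2.59 in empty vector cells).

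Members and lists were chosen with earlier results of these data known. Genes named are FOXD2 and FOXD2-AS1, every tested member, untested members with 3 or more counts in a library, up to 4 genes in each direction per list by size of change, all tested noncoding genes, and the nearest tested neighbours of called members within 500 kb; FOXA2, FOXS1, members with 0 counts and single genes that did not pass or rank lower were named after their values were seen. A planned comparison of protein sequences was not run. Sequences are from RefSeq, GRCh38.p14. Some single genes are not reported here.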

Additional observations from a re-analysis of the deposited data

How the results depend on the processing

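Of the 12 called members other than FOXD2, 7 (FOXQ1, FOXC1, FOXO3, FOXO4, FOXJ2, FOXM1 and FOXN2) passed under all 13 alternatives, 5 lost their call under at least 1, and no called member changed sign. FOXQ1 lay between 4.29 and 6.35 and FOXD2 between 6.67 and 7.49 on the log2 scale. Members called higher numbered 5 to 7 and lower 4 to 6 when a library was left out, where the library left alone is taken to have the spread of the other pair. With limma on log2(TPM + 1) or log2(TPM + 0.1) 3 members were lower, and over all genes 2424 or 2415 were lower. Without a library, 3146 to 3579 genes were higher and 3046 to 3650 lower. With library size alone 4514 genes were higher and 3104 lower, against 3929 and 3816 with TMM, and 8 members were higher and 4 lower. FOXK1 passed as lower without FOXD2 replicate 1 (adjusted p = 0.0047) and with no filter (0.049; range 0.0047 to 0.95), FOXN3 as lower without FOXD2 replicate 2 (0.012; range 0.012 to 0.54), FOXP4 as higher without it (0.042; range 0.042 to 0.71), and FOXO1 as higher with library size alone (0.049; range 0.049 to 0.46). The signs of FOXA1, FOXD1, FOXF1, FOXO6, FOXP2 and FOXP4, none of them called, differed between alternatives. In the 250 bases before the start alone, windows of called members with TAAACA numbered 1 and with GTAAACA 0, and forkhead windows with GTAAACA numbered 1. The causes were not tested. The sample titles give replicate numbers, not whether same-numbered libraries were prepared together. Deviations of same-numbered libraries correlated at -0.099, which with 2 libraries a group cannot decide this. The replicate block gave 3680 higher and 3494 lower genes and 7 higher and 4 lower members. It ended the call of FOXJ3 alone among the members (edgeR adjusted p = 0.12). Of the members below the filter, 11 were fitted in the alternative with no filter, and none passed.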
